A study of Mus musculus with 6 samples.

Results

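A set of 39 mouse genes of the G1/S transition and of DNA replication was followed in CD4+ T cells treated with LPC or with vehicle. The genes were chosen by symbol from knowledge of the pathway: G1 cyclins and kinases, E2F factors, and genes of origin licensing, helicase activation, DNA synthesis, nucleotide supply and new chromatin. All 39 were among the 18046 genes listed, and all 39 passed the filter on low values described with the test. The cells were naive CD4+ T cells from spleens of C57BL/6 mice with a labelled age of 3 weeks, stimulated in culture through CD3 and CD28 with antibodies over 3 days and steered towards the T helper 1 (Th1) fate. The LPC group (n = 3 libraries) received 20 µM LPC during activation, and the vehicle group (n = 3 libraries) received the carrier without it. The labels neither spell out LPC nor name the vehicle, and they leave unsaid if each library stands for its own mouse or culture. P-values therefore measure only library-to-library spread, which may be technical. The question was how LPC altered gene expression while Th1 cells formed, asked here of the genes that carry a cell into S phase.

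T cells leave a resting state when their receptor is engaged, and they then divide rapidly. In G1, D-type cyclins with CDK4 or CDK6, and then cyclin E with CDK2, phosphorylate the retinoblastoma protein, which frees E2F factors to switch on the genes of DNA replication. Origins are licensed when ORC, CDC6 and CDT1 load the ring-shaped MCM helicase on DNA, and the helicase is fired when CDC45 and the GINS complex join it. Polymerases, the sliding clamp PCNA and its loader then copy the DNA, while other enzymes supply deoxynucleotides and histone chaperones rebuild chromatin.

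Expression was deposited as FPKM, sequenced fragments relative to transcript length and library size, so levels may be compared between genes. The FPKM values of a library summed to 562046 to 641026 with LPC and 556561 to 588274 with vehicle. The files hold no read totals. The steps between low values pointed to 19.0 to 19.5 M reads in every library, an estimate with a mean distance of 0.18 to 0.185 from whole reads, where evenly spread values give 0.25. The cells carried T cell transcripts: the 7 T cell markers listed, among them Cd3e and Cd4, summed to 1718 to 1868 FPKM with LPC and 1812 to 1890 FPKM with vehicle. All 6 B cell markers, 3 neutrophil markers, 3 natural killer cell markers and 4 erythroid markers stayed under 1 FPKM in every library, with Ncr1, Klra8 and Elane at 0. Of 7 myeloid markers Cd68 alone reached 1 FPKM, of 4 dendritic cell markers Zbtb46 alone, and of both CD8 markers Cd8b1 alone. Their lists summed to 3.7 to 5.23, 1.25 to 1.61 and 10.9 to 12.8 FPKM with LPC, against 4.06 to 5.98, 2.86 to 2.94 and 13.5 to 14.5 FPKM with vehicle, and their part in the results was not tested. The 4 Th1 genes Tbx21, Ifng, Il12rb2 and Cxcr3 summed to 1491 to 1637 FPKM with LPC and 1498 to 1644 FPKM with vehicle. In bulk RNA, a change in the share of cycling cells and a change in RNA per cell cannot be told apart.

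The set ran from abundant to scarce transcripts (plot of FPKM by gene and library). Ccnd3, a D-type cyclin, was the most abundant of the 39 in both groups, at 302 ± 38.9 FPKM with LPC and 304 ± 14.6 FPKM with vehicle (SD, n = 3 each), and it ranked 220th of all genes listed by mean FPKM. Pcna, Cdk4 and Ccnd2 filled the next places in both groups, followed by Mcm3, while Ccne2 was the scarcest. Together the 39 genes took 0.41%, 0.434% and 0.384% of the FPKM sum in LPC replicates 1 to 3, against 0.396%, 0.405% and 0.363% in vehicle replicates 1 to 3. These shares overlapped between the groups.

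**Figure D1:**
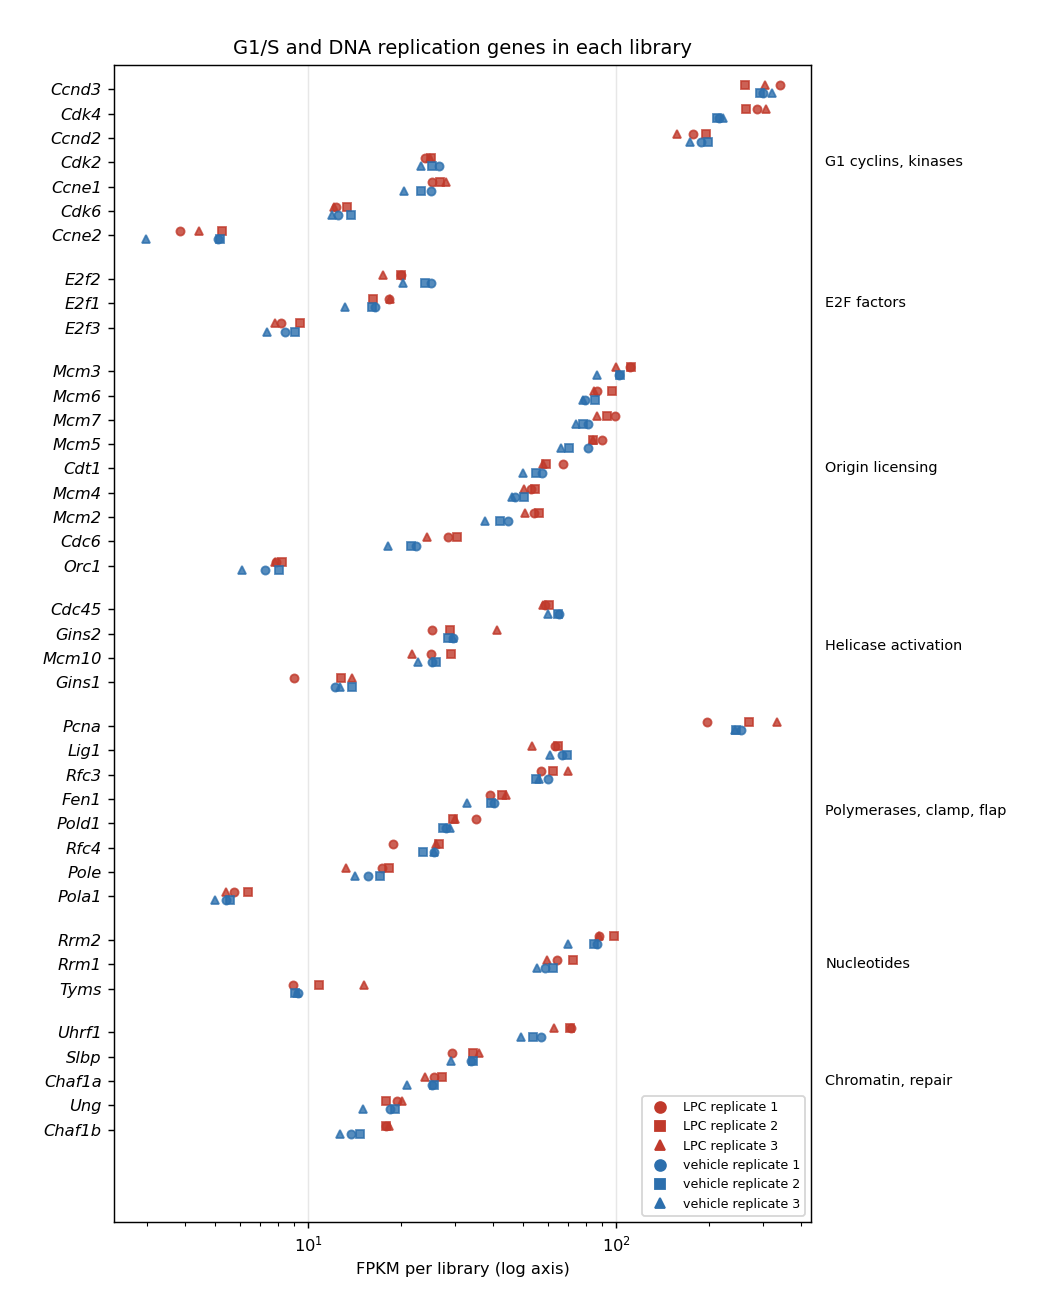
FPKM of each of the 39 genes in each library on a log axis, grouped by role, with LPC libraries in red above vehicle libraries in blue; circles, squares and triangles stand for replicates 1, 2 and 3. All red points lie to the right of all blue points for 11 of the 39 genes (28.2%, against 13.7% of all tested genes). Cdk4, Cdc6, Mcm2, Uhrf1 and Chaf1b are among these 11. Blue triangles lie leftmost among the vehicle points for 31 of the 39 genes.

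With LPC 5 of the 39 genes rose and none fell. They were Cdk4, the kinase partner of D-type cyclins, Cdc6 and Mcm2 of origin licensing, Chaf1b, a subunit of the histone chaperone CAF-1, and Uhrf1, which guides maintenance DNA methylation to newly made DNA. Mean FPKM of each with LPC was 1.28 to 1.34 times that with vehicle. Genes that reached 1 FPKM in at least 3 libraries, 10138 in number, were tested by limma-trend after log2(FPKM + 1) transformation, and a Benjamini-Hochberg adjusted p under 0.05 was taken as a change. Log2 changes below are LPC minus vehicle on that scale, where changes of scarce transcripts are understated. The 5 rises were 12.8% of the 39, against 5.82% of all tested genes called higher. The 0 falls compare with 7.91% of all tested genes called lower. At an unadjusted limma p under 0.05, 8 of the 39 were higher and 1 (E2f2) was lower, where 12.2% of all tested genes were higher and 17.9% lower. The members and their lists were chosen with earlier results of these data known, so these shares are a description.

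Cdk4 was listed at 286, 264 and 307 FPKM with LPC, against 216, 213 and 223 FPKM with vehicle (log2 change 0.39, SE 0.09, adjusted p = 0.0147). All LPC libraries lay above all vehicle libraries. Cdc6, the loading factor that recruits the MCM ring to origins, was listed at 28.5, 30.5 and 24.3 FPKM with LPC, against 22.5, 21.7 and 18.2 FPKM with vehicle (0.40, SE 0.11, adjusted p = 0.0282). Replicate 3 was the lowest of its group on both sides. Mcm2, a helicase subunit that also binds histones, was listed at 54.1, 56.0 and 50.5 FPKM with LPC, against 44.6, 42.0 and 37.7 FPKM with vehicle (0.37, SE 0.09, adjusted p = 0.0202). Again the groups did not overlap.

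Chaf1b was listed at 17.9, 17.9 and 18.3 FPKM with LPC, against 13.8, 14.7 and 12.7 FPKM with vehicle (log2 change 0.37, SE 0.09, adjusted p = 0.0182). The LPC libraries were nearly level with each other, with an SD of 0.188 FPKM, and all lay above the vehicle libraries. Uhrf1 was listed at 71.7, 71.0 and 63.1 FPKM with LPC, against 57.2, 53.9 and 49.2 FPKM with vehicle (0.35, SE 0.09, adjusted p = 0.0244). The lowest LPC value exceeded the highest vehicle value for each of the 5 genes, a pattern shown by 13.7% of all tested genes. The 5 were picked by the test on the same values, so this separation is a description.

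These calls depended on single libraries. Leaving out vehicle replicate 1 kept Mcm2 alone, with adjusted p = 0.078 for Cdk4, 0.0542 for Cdc6, 0.0785 for Chaf1b and 0.0555 for Uhrf1. Leaving out vehicle replicate 2 kept Chaf1b alone, with adjusted p = 0.0752 for Cdk4, 0.0504 for Cdc6, 0.064 for Mcm2 and 0.0767 for Uhrf1. Leaving out vehicle replicate 3 kept Cdk4 alone, with adjusted p = 0.102 for Cdc6, 0.0887 for Mcm2, 0.0805 for Chaf1b and 0.0973 for Uhrf1. Leaving out LPC replicate 1 also kept Cdk4 alone, with adjusted p = 0.0963 for Cdc6, 0.061 for Mcm2, 0.052 for Chaf1b and 0.0808 for Uhrf1. In these 4 fits 2.22% to 4.37% of all tested genes were called higher. Leaving out LPC replicate 2 lost Cdc6 (0.0624), and leaving out LPC replicate 3 added Mcm7 (0.0304). Over these 6 fits the log2 change of each of the 5 stayed between 0.30 and 0.49. With no filter on low values none of the 5 passed (adjusted p = 0.0629 for Chaf1b to 0.167 for Cdc6, with 0.598% of all genes called higher), and Uhrf1 did not pass after quantile normalization (0.0529).

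**Figure D2:**
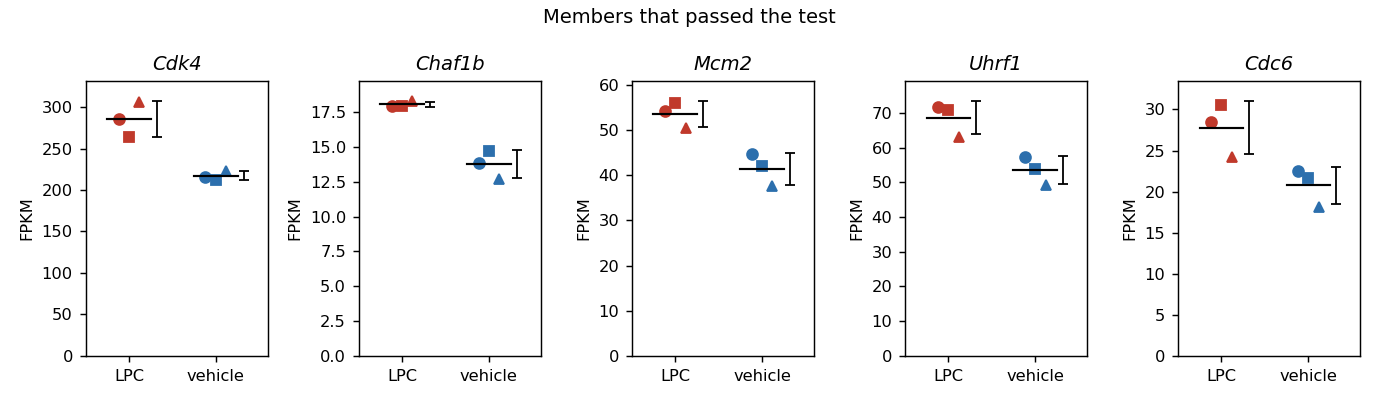
FPKM in each library of the 5 genes that passed the test, LPC left in red and vehicle right in blue; circles, squares and triangles are replicates 1, 2 and 3, lines are group means and bars are ± 1 SD (n = 3). The LPC libraries lie above the vehicle libraries in all 5 panels, as in Cdk4 with 264 to 307 FPKM against 213 to 223 FPKM. That pattern was shown by 13.7% of all tested genes.

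On GRCm38.p6, Cdk4 lies on chromosome 10 at 127063535 to 127067288, Cdc6 on chromosome 11 at 98907709 to 98923942 and Mcm2 on chromosome 6 at 88883474 to 88898780. Chaf1b lies on chromosome 16 at 93883900 to 93906115 and Uhrf1 on chromosome 17 at 56303337 to 56323486. E2F factors bind short GC-rich words near the starts of replication genes. RefSeq promoter windows of GRCm38.p6, from 250 bases before a start to 50 after it, were searched on both strands for TTTCCCGC, TTTCGCGC, TTTGCCGC, TTTGGCGC and TTCCCGCC, the last of which can overlap the first. Of the 39 genes 33 had a window, and 18 of these (54.5%) held a word, against 8.81% of 8244 tested genes with a window. By window the share was 46.3% of 41, against 25.3% of 95 windows of other listed G1/S and replication genes, 7.33% of 10494 windows of tested genes and 3.89% of all 32851 windows of this length. The CCAAT word was held by 20 of the 33 genes (60.6%), against 43.7% of tested genes with a window. Among the genes that rose, Cdc6 and Uhrf1 held an E2F word and Cdk4, Mcm2 and Chaf1b held none of these words in their windows. The median log2 change was 0.14 for the 18 genes with a word and 0.16 for the 15 without. Ccnd2, Ccne2, Mcm4, Gins1, Gins2 and Pole had no window. The windows of Cdc6 (chr11:98907901-98908200, plus strand) and of both Uhrf1 starts (chr17:56303087-56303386 and chr17:56304063-56304362, plus strand) are shown because these are the rising genes with a word, which stands in capitals. A match of letters is no evidence of binding.
Cdc6: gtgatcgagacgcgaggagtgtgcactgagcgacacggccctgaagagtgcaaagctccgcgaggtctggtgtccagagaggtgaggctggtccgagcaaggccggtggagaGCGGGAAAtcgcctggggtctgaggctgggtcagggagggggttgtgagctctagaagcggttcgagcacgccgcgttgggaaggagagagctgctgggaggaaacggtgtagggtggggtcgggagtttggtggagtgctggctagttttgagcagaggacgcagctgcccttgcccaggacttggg
Uhrf1, upstream start: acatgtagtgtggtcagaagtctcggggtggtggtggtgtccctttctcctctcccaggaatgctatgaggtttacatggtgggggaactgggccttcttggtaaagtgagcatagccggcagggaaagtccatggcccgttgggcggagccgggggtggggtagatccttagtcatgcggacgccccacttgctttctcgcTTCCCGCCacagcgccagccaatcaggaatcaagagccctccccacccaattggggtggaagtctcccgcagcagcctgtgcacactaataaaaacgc
Uhrf1, downstream start: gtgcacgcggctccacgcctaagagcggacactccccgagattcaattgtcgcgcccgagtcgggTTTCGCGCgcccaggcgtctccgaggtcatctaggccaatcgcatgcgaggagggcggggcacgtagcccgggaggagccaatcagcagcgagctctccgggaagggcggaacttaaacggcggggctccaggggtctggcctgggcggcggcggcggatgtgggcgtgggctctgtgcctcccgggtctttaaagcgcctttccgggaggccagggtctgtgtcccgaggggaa
The Cdc6 window begins at 98907901, inside the listed gene, which runs from 98907709, so it belongs to a start downstream of the listed gene start. Its word is GCGGGAAA, the reverse complement of TTTCCCGC, and begins 138 bases before that downstream start. In the Uhrf1 windows TTCCCGCC begins 48 bases before the upstream start and TTTCGCGC 185 bases before the downstream start.

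Among 7 G1 cyclin and kinase genes Cdk4 alone rose (14.3%, against 5.82% of all tested genes) and none fell (against 7.91%). At an unadjusted p under 0.05, 2 were higher, against 12.2% of all tested genes. The median log2 change of the 7 was -0.02, against -0.04 over all tested genes, and took either sign over the alternatives (-0.06 to 0.16). Ccnd3 was listed at 339, 262 and 305 FPKM with LPC and 299.8, 292 and 320.4 FPKM with vehicle (log2 change -0.02, 95% interval -0.24 to 0.21), so its groups overlapped. Ccnd2 had 178, 196 and 158 FPKM with LPC and 189, 198 and 174 FPKM with vehicle (-0.08, interval -0.30 to 0.13). Ccnd1, the D-type cyclin of many adherent cells, stayed under 0.5 FPKM in every library, so nearly all D-type cyclin transcripts were of Ccnd2 and Ccnd3. Cdk6, which shares these partners, was listed at 12.6 ± 0.7 FPKM with LPC and 12.8 ± 0.943 FPKM with vehicle and had a log2 change of -0.02. Cdk4 thus exceeded Cdk6 23.2-fold, 19.7-fold and 25.3-fold in the LPC libraries, against 17.3-fold, 15.4-fold and 18.6-fold in the vehicle libraries. The ratio was higher in every LPC library, a comparison chosen after the values were seen and not tested. Ccne1, the more abundant of the cyclin E genes that partner CDK2, had 25.2, 26.9 and 28.0 FPKM with LPC and 25.1, 23.3 and 20.5 FPKM with vehicle. Its groups did not overlap, but it did not pass (0.21, interval 0.01 to 0.42, adjusted p = 0.156). Cdk2 (-0.02) and Ccne2 (0.04) did not pass either, and Ccne2 varied most among vehicle libraries, with 5.09, 5.19 and 2.98 FPKM.

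None of the 3 E2F genes passed, where 5.82% of all tested genes were called higher and 7.91% lower. At an unadjusted p under 0.05, 1 of the 3 (E2f2) was lower, against 17.9% of all tested genes. E2f2, an activating E2F, was listed at 20.1, 20.1 and 17.5 FPKM with LPC, against 25.1, 24.0 and 20.3 FPKM with vehicle (log2 change -0.25, interval -0.47 to -0.03, adjusted p = 0.115). It was the only one of the 39 with every LPC library below every vehicle library, a pattern shown by 20.7% of all tested genes. E2f1, another activator, was listed at 18.3, 16.2 and 18.4 FPKM with LPC, against 16.6, 16.1 and 13.2 FPKM with vehicle (0.20, interval -0.02 to 0.42, adjusted p = 0.215). Its groups overlapped. The ratio of E2f1 to E2f2 was 0.913, 0.806 and 1.05 in the LPC libraries, against 0.659, 0.671 and 0.65 in the vehicle libraries. The groups did not overlap in this ratio, which was chosen after the values were seen and carries no test. E2f3, the third activator, was listed at 8.48 ± 0.866 FPKM with LPC and 8.29 ± 0.88 FPKM with vehicle (log2 change 0.03, interval -0.20 to 0.26).

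In origin licensing all 9 genes had a positive log2 change, against 41.7% of all tested genes. The changes ran from 0.14 for Mcm4 to 0.40 for Cdc6, with a median of 0.18. All 9 stayed positive under each alternative scaling and with each library left out. Cdc6 and Mcm2 rose (22.2%, against 5.82% of all tested genes) and none fell (against 7.91%). At an unadjusted p under 0.05, 4 of the 9 were higher, against 12.2% of all tested genes. With so few genes these shares are a description. The 6 helicase genes Mcm2 to Mcm7 encode the ring that unwinds DNA at the fork. Their FPKM summed to 494, 497 and 456 in LPC replicates 1 to 3, against 435, 429 and 389.5 in vehicle replicates 1 to 3. Every LPC sum exceeded every vehicle sum, and replicate 3 was the lowest on both sides. These sums are not shares of each library's FPKM sum, which was highest in LPC replicate 3 (641026). Whether the groups stay apart as shares was not tested.

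The subunits of the ring, which are present in equal numbers in the complex, did not have equal transcript levels. Mcm3 was the most abundant in all 6 libraries, at 111, 112 and 99.8 FPKM with LPC and 102, 103 and 86.8 FPKM with vehicle, and it did not pass (log2 change 0.15, interval -0.06 to 0.35). Mcm4 was the least abundant with LPC and Mcm2 with vehicle. The highest subunit exceeded the lowest 2.1-fold, 2.05-fold and 1.99-fold in the LPC libraries, against 2.3-fold, 2.45-fold and 2.31-fold in the vehicle libraries. Mcm2 made up 11.1% of the summed level with LPC and 9.91% with vehicle. Mcm7 was listed at 98.9, 93.7 and 86.7 FPKM with LPC, against 81.0, 78.1 and 74.2 FPKM with vehicle (0.26, interval 0.07 to 0.44, adjusted p = 0.0689). Mcm5 was listed at 89.8, 84.0 and 84.4 FPKM with LPC, against 81.0, 70.5 and 66.5 FPKM with vehicle (0.25, interval 0.04 to 0.45, adjusted p = 0.0967). The LPC libraries lay above the vehicle libraries for either gene, as for 13.7% of all tested genes, yet neither passed. Mcm6 and Mcm4 each had a log2 change of 0.14 with overlapping groups. Cdt1, which loads the ring together with CDC6, was listed at 61.5 ± 4.97 FPKM with LPC and 54.2 ± 3.77 FPKM with vehicle (0.18, adjusted p = 0.21). Orc1, the largest subunit of the origin recognition complex, was listed at 7.98 ± 0.238 FPKM with LPC and 7.13 ± 0.96 FPKM with vehicle (0.15, adjusted p = 0.355).

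**Figure D3:**
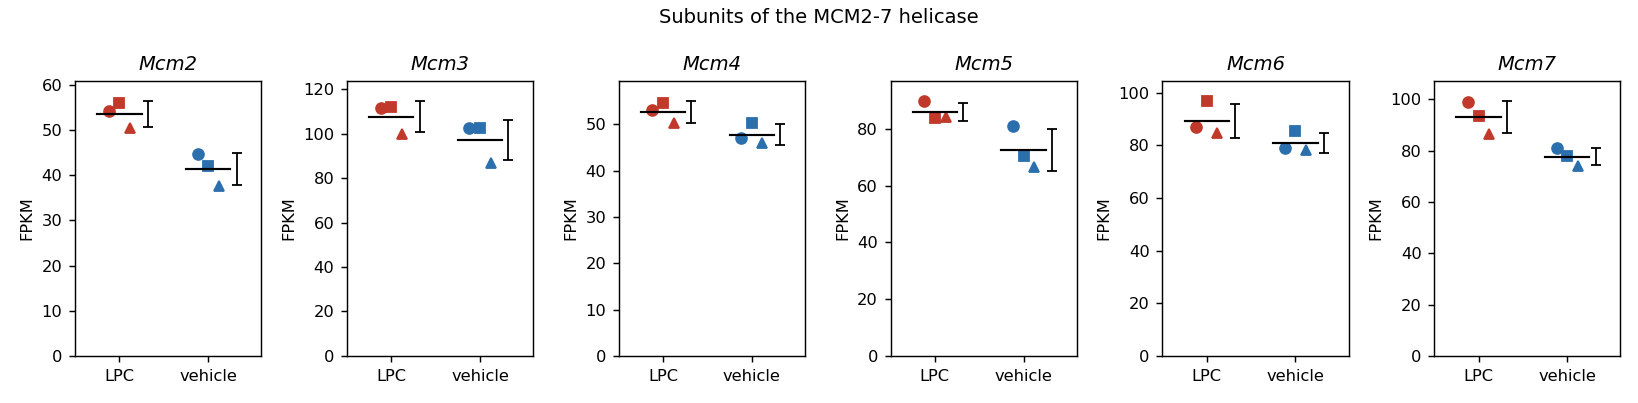
FPKM in each library of the 6 subunits of the replicative helicase, LPC left in red and vehicle right in blue; circles, squares and triangles are replicates 1, 2 and 3, lines are group means and bars are ± 1 SD (n = 3). The group means are higher with LPC in all 6 panels, and the libraries do not overlap for Mcm2, Mcm5 and Mcm7. All LPC libraries lay above all vehicle libraries for 13.7% of all tested genes.

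Of the 4 helicase activation genes 2 had a positive and 2 a negative log2 change, none passed and none had an unadjusted p under 0.05. The median log2 change was -0.03 and took either sign over the alternatives (-0.10 to 0.04). Cdc45, which joins the ring at firing, was listed at 58.7, 60.5 and 58.1 FPKM with LPC, against 65.3, 65.0 and 60.0 FPKM with vehicle (log2 change -0.10, interval -0.28 to 0.08), and its groups overlapped. Mcm10, a scaffold of the active fork, had a log2 change of 0.03. The GINS subunit genes were among the most variable of the set within the LPC group. Gins2 had 25.2, 28.8 and 41.0 FPKM with LPC and 29.6, 28.5 and 29.5 FPKM with vehicle (0.09, interval -0.21 to 0.38), and Gins1 had 8.98, 12.8 and 13.9 FPKM with LPC and 12.2, 13.9 and 12.7 FPKM with vehicle (-0.13, interval -0.41 to 0.15). LPC replicate 1 was the lowest and LPC replicate 3 the highest for both.

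None of the 8 genes of polymerases, clamp, clamp loader and flap processing passed, and none had an unadjusted p under 0.05 (median log2 change 0.10). Pcna, the sliding clamp, was listed at 198, 271 and 334 FPKM with LPC and at 255, 245 and 243 FPKM with vehicle (log2 change 0.08, interval -0.23 to 0.39). LPC values lay on both sides of the vehicle values, and the coefficient of variation was 25.5% with LPC and 2.74% with vehicle. Lig1, the ligase that joins Okazaki fragments, was listed at 63.1, 64.6 and 53.4 FPKM with LPC and at 66.8, 69.5 and 61.0 FPKM with vehicle (-0.12, interval -0.33 to 0.08). Pold1, the catalytic subunit of the lagging-strand polymerase, had 35.0, 29.6 and 30.0 FPKM with LPC and 28.0, 27.4 and 29.0 FPKM with vehicle. Its groups did not overlap, and it did not pass (0.16, adjusted p = 0.275). The primase-linked polymerase gene Pola1 (0.11), the leading-strand polymerase gene Pole (0.05), the flap nuclease gene Fen1 (0.16) and the clamp loader genes Rfc3 (0.13) and Rfc4 (-0.08) had overlapping groups.

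None of the 3 deoxynucleotide genes passed, none had an unadjusted p under 0.05, and all 3 had positive log2 changes. Rrm2, the cell-cycle regulated subunit of ribonucleotide reductase, was listed at 88.4, 98.2 and 88.2 FPKM with LPC, against 86.7, 84.95 and 70.0 FPKM with vehicle (log2 change 0.19, interval -0.03 to 0.40, adjusted p = 0.223). The groups did not overlap, by a narrow gap. Rrm1, its partner subunit, was listed at 64.5, 72.7 and 59.7 FPKM with LPC and at 58.9, 62.4 and 55.5 FPKM with vehicle (0.15, adjusted p = 0.308). Tyms, which makes thymidylate, had 8.95, 10.9 and 15.2 FPKM with LPC and 9.29, 9.04 and 9.24 FPKM with vehicle (0.29, interval -0.02 to 0.59, adjusted p = 0.193). Its LPC libraries were the most spread of the set, with a coefficient of variation of 27.5%. GENCODE M21 annotates pseudogenes of Tyms, Pcna and Ccnd3, so the division of their reads is less certain.

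Of the 5 chromatin and repair genes Chaf1b and Uhrf1 rose (40%, against 5.82% of all tested genes) and none fell (against 7.91%). With so few genes this share is a description. Chaf1a, the large subunit of the same CAF-1 complex, was listed at 25.7, 27.2 and 24.0 FPKM with LPC, against 25.2, 25.6 and 20.9 FPKM with vehicle (log2 change 0.10, interval -0.11 to 0.31), with overlapping groups. Whether the changes of Chaf1b and Chaf1a differ was not tested. Slbp, which binds the stem-loop of histone mRNA, was listed at 29.4, 34.2 and 35.9 FPKM with LPC and at 33.8, 34.3 and 29.0 FPKM with vehicle (0.03). Ung, the uracil-removing glycosylase, had a log2 change of 0.13 (adjusted p = 0.417).

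Over the whole set 30 of 39 log2 changes were positive (76.9%), against 41.7% of all tested genes, and the median was 0.13, against -0.04. LPC libraries lay above all vehicle libraries for 11 of the 39 (28.2%), against 13.7% of all tested genes. For 36 of the 39 the 95% interval stayed inside a 1.5-fold change of FPKM + 1 in either direction. The 3 exceptions, Cdk4, Cdc6 and Tyms, reached beyond it on the high side. In FPKM itself the intervals of scarce transcripts are wider, so the count holds only on that scale of FPKM + 1. A single control library moved this median: vehicle replicate 3 had the lowest vehicle value for 31 of the 39 genes, and without it the median was 0.07 and 26 changes were positive. LPC replicate 3 likewise had the lowest LPC value for 21 of the 39, and without it the median was 0.146 and 29 changes were positive. Whether replicate 3 was low on both sides for a shared reason was not tested. With each library's trend with GC share and transcript length removed, 11 genes rose (Cdk4, Cdc6, Mcm2, Mcm4 to Mcm7, Rrm1, Pola1, Chaf1b and Uhrf1) and 1, E2f2, fell, while calls also grew over all tested genes, to 11.6% higher and 11.6% lower. Of all calls 42.4% were higher with LPC, against 51.1% after quantile normalization, 53.1% after median centring and 50.2% after that removal.

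**Figure D4:**
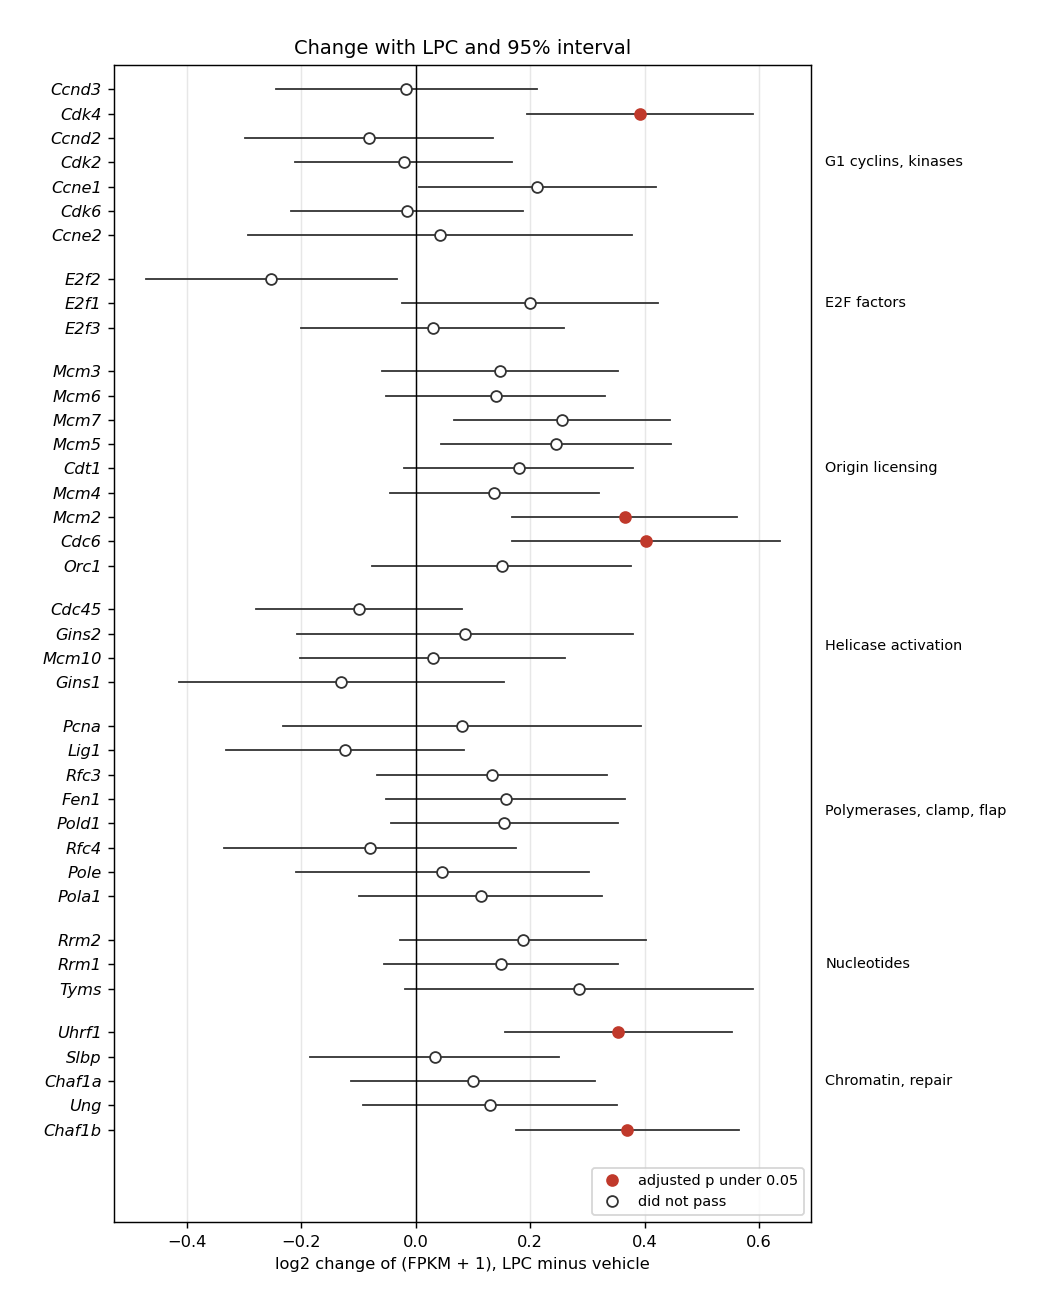
Log2 change of (FPKM + 1), LPC minus vehicle, for each of the 39 genes with its 95% interval from limma, grouped by role; filled red points passed at an adjusted p under 0.05. All 9 licensing genes lie right of 0, from 0.14 to 0.40, while cyclin, E2F and helicase activation genes lie on both sides.

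Within groups, deviations of the 39 genes moved with base composition and transcript length. Across the 39 genes, the deviation of LPC replicate 1 from the mean of the other LPC libraries had a Pearson correlation of 0.55 with GC share, that of LPC replicate 2 had -0.65, and that of LPC replicate 3 had -0.55 with log2 transcript length. In the vehicle libraries the correlations with GC share or length lay between -0.36 and 0.35. The points share these libraries, and the part of GC share and length in the 39 changes was not tested beyond the removal of trends above. Among the 39 genes, LPC replicate 2 gave the highest LPC value for 21, LPC replicate 3 for 12 and LPC replicate 1 for 6. The median GC share of the 39 was 49.9%, against 50.3% of tested genes, and their median transcript length 3031 bases, against 2812.5 bases.

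Other genes of the same machinery were read from a wider list of 98, of which 94 were tested. With LPC 8 rose (8.51%, against 5.82% of all tested genes) and 3 fell (3.19%, against 7.91%). The median log2 change was 0.03, with its sign turned without LPC replicate 2 (-0.02) or vehicle replicate 3 (-0.005). Of 4 tested CDK inhibitor genes 1 rose and 1 fell, and of 12 genes of pocket proteins, other E2F factors and their partners 0 rose and 1 fell. Cdkn1a, which encodes the CDK inhibitor p21, was listed at 159, 154 and 175 FPKM with LPC, against 122.7, 119.2 and 99.1 FPKM with vehicle (log2 change 0.52, SE 0.10, adjusted p = 0.00673). All LPC libraries lay above all vehicle libraries. Cdkn2c, an INK4 inhibitor of CDK4 and CDK6, fell to 7.11, 8.58 and 8.65 FPKM with LPC, against 10.8, 10.1 and 11.3 FPKM with vehicle (-0.37, SE 0.10, adjusted p = 0.0301). Rb1, the retinoblastoma gene, fell to 14.7, 17.1 and 13.6 FPKM with LPC, against 18.7, 22.9 and 20.5 FPKM with vehicle (-0.43, SE 0.11, adjusted p = 0.019).

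Cdkn1b, which encodes p27, was listed at 21.0, 25.1 and 19.7 FPKM with LPC, against 28.2, 28.6 and 25.4 FPKM with vehicle, and missed the threshold (log2 change -0.31, adjusted p = 0.0569). The pocket protein genes Rbl2 (-0.25, adjusted p = 0.127) and Rbl1 (-0.14) and the INK4 gene Cdkn2d (0.10) did not pass. Cdkn1c, Cdkn2a and Cdkn2b stayed under 1 FPKM in every library. The E2F partner gene Tfdp2 (-0.27, adjusted p = 0.105) and the repressor subunit gene Lin54 (-0.34, adjusted p = 0.057) missed the threshold as well.

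**Figure D5:**
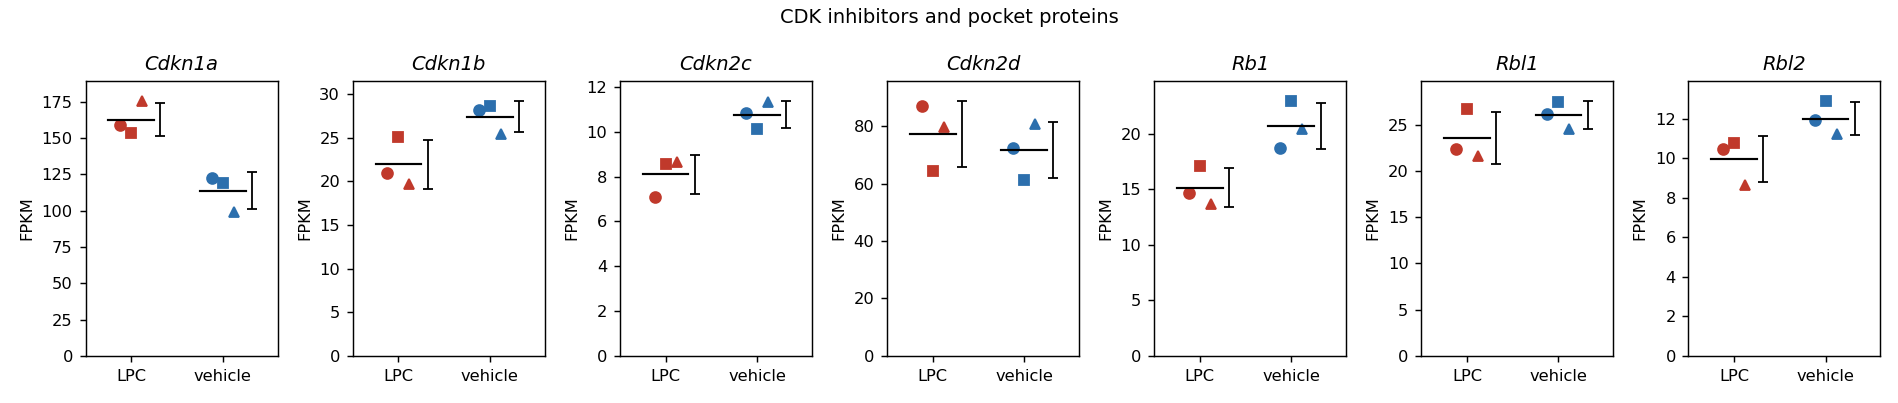
FPKM in each library of tested CDK inhibitor and pocket protein genes, LPC left in red and vehicle right in blue; circles, squares and triangles are replicates 1, 2 and 3, lines are group means and bars are ± 1 SD (n = 3). Cdkn1a lies higher with LPC, while Cdkn1b, Cdkn2c, Rb1 and Rbl2 have all LPC libraries below all vehicle libraries. The latter pattern was shown by 20.7% of all tested genes and by 8.51% of the 94 tested genes of the wider list.

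At the fork and in nucleotide supply 7 further genes rose and 1 fell. Of 26 tested fork genes 4 rose (15.4%) and 1 fell (3.85%), and of 11 nucleotide genes 3 rose (27.3%) and 0 fell. Over all tested genes 5.82% were called higher and 7.91% lower. Shmt1, which feeds one-carbon units into thymidylate synthesis, had the lowest adjusted p of the wider list, with 22.7, 22.7 and 21.4 FPKM with LPC, against 15.3, 15.1 and 16.0 FPKM with vehicle (log2 change 0.50, SE 0.09, adjusted p = 0.00346). The thymidine kinase gene Tk1 averaged 49.6 FPKM with LPC and 39.6 FPKM with vehicle (0.32), and the dUTPase gene Dut 52.4 FPKM with LPC and 39.3 FPKM with vehicle (0.40). The polymerase delta accessory gene Pold2 averaged 50.5 FPKM with LPC and 39.2 FPKM with vehicle (0.35), while Pold4, its smallest accessory subunit gene, fell to 162 FPKM with LPC, against 204 FPKM with vehicle (-0.33). Rnaseh2c (0.44), which encodes a subunit of the ribonuclease that clears RNA from DNA, the nuclease-helicase gene Dna2 (0.40) and the clamp loader gene Chtf18 (0.34) also rose. None of 17 other origin and firing genes passed, such as Gmnn (-0.03), Dbf4 (-0.13) and Cdc7 (-0.04), and none had an unadjusted p under 0.05. Nor did any of 14 other chromatin genes or of 10 tested genes of other cyclins and cell cycle entry pass. Of 22 mitosis genes Kif20a (0.50) and Ccnf (0.40) rose (9.09%, against 5.82% of all tested genes) and none fell, with a median of 0.02. At an unadjusted p under 0.05, 6 were higher and 0 lower, against 12.2% and 17.9% of all tested genes. Neither mitosis call held without vehicle replicate 1 (adjusted p = 0.0555 for Kif20a and 0.0929 for Ccnf), and Ccnf did not pass without vehicle replicate 2 (0.0564) or LPC replicate 1 (0.0527). Both calls were also lost with no filter on low values (0.0858 for Kif20a and 0.0544 for Ccnf).

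In the wider list, Shmt1 and Cdkn1a were called with any 1 library left out. Without vehicle replicate 1 the calls of Rnaseh2c (adjusted p = 0.11), Dna2 (0.0794), Dut (0.0643), Pold2 (0.11), Chtf18 (0.155), Tk1 (0.161), Cdkn2c (0.112) and Pold4 (0.0917) were lost. Without vehicle replicate 2 those of Rnaseh2c (0.0665), Dut (0.123), Pold2 (0.104), Chtf18 (0.106), Tk1 (0.241), Rb1 (0.0977), Cdkn2c (0.0605) and Pold4 (0.107) were lost. Without vehicle replicate 3 those of Dna2 (0.103), Dut (0.0559), Chtf18 (0.0694), Cdkn2c (0.0915) and Pold4 (0.179) were lost. Without LPC replicate 1 those of Rnaseh2c (0.0751), Dna2 (0.0823), Pold2 (0.0957), Chtf18 (0.109), Tk1 (0.146), Rb1 (0.071), Cdkn2c (0.109) and Pold4 (0.0563) were lost. Without LPC replicate 2 those of Dna2 (0.058) and Pold4 (0.0947) were lost, and without LPC replicate 3 those of Rnaseh2c (0.0542), Dut (0.0657) and Tk1 (0.0833). With no filter on low values Shmt1 alone of the wider list was called. After median centring Rnaseh2c, Dut, Tk1, Cdkn2c and Pold4 did not pass, and Tk1 and Cdkn2c did not pass after quantile normalization. Tk1, called at an adjusted p of 0.0494, also missed the threshold with a pseudocount of 0.1 (0.0518) and with a floor of 5 on the mean FPKM (0.0507), and passed in 4 of 13 alternatives.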

How the data were processed

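Per the labels' protocols, total RNA of 6 libraries was read on a BGISEQ-500 sequencer. The authors aligned reads to GRCm38 with Bowtie2 and deposited FPKM from RSEM, per the labels' protocols, with versions not given in the sources used here. RSEM splits reads shared by several genes by an estimate, and since FPKM is scaled to each library's total, abundant genes that rise push other listed values down. From the deposited values, 24 symbols turned into dates were restored by identifier, and 17918 identifiers (99.3%) matched the RefSeq table of GRCm38.p6.

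Log2(FPKM + 1) of the 10138 genes that reached 1 FPKM in at least 3 libraries was fitted with limma-trend (limma 3.58.1, R 4.3.3) with group alone in the model, and two-sided p-values were adjusted over all these genes by Benjamini-Hochberg. FPKM is not a count, so no count test was used. Groups came from the labelled agent. The members and gene lists were chosen with earlier results of these data known. Library values are given for members that were called and for the 2 of highest mean FPKM in each role, and all called genes of the wider list are named; further values were chosen after they were seen. The script was tested on simulated data. Transcript length and GC share came from GENCODE M21 (99% of tested genes). Figures were drawn with matplotlib 3.10.9. The markers Trac and S100a8 are not used here.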

Additional observations from a re-analysis of the deposited data

How the results depend on the processing

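The number of members called higher, 5, was 4 to 7 with quantile normalization, median centring, a floor of 5 on the mean FPKM, a pseudocount of 0.1 or the replicate number as a block, 11 after removal of GC and length trends, 0 with no filter on low values and 1 to 6 with each library left out. Members called lower, 0, numbered 1 with the replicate block and 1 with GC and length trends removed, E2f2 in both. The median log2 change of the members, 0.13, lay between 0.070 and 0.15 with each library left out, the lowest without vehicle replicate 3. In the wider list the 8 rises became 1 with no filter, 14 with the replicate block, 18 after removal of GC and length trends and 2 to 11 with each library left out. The 3 falls of that list became 1 with median centring, 0 with no filter, 9 with the replicate block and 0 to 5 with each library left out. Over all tested genes 5.82% were called higher and 7.91% lower, against 11.6% and 16.4% with the replicate block, 11.6% and 11.6% once GC and length trends were removed, and 0.598% and 0.46% of 18046 genes with no filter. Why Uhrf1 missed the threshold after quantile normalization was not tested. Over all 13 alternatives no member's call was reversed; for the 5 called members 42 values passed the threshold and 23 fell short, and 12 values of other members passed it. The labels do not state that replicate numbers pair libraries, so the block was used only as an alternative. Deviations from group means correlated at 0.562 and 0.406 for numbers 2 and 3, and at -0.447 and -0.498 crosswise between these numbers. For number 1 the correlation was 0.018, and LPC replicate 1 lay between -0.01 and 0.018 with every vehicle library. Vehicle replicate 1 correlated best with LPC replicate 3 (0.065). Whether the numbers mark a shared batch was not tested. Read depth is known only as an estimate, so no counting error is given, and with 3 libraries a group the 95% intervals limit what can be told apart.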
